A study of Arabidopsis thaliana with 28 samples.

Results

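Receptor-like proteins are cell-surface receptors of plants, and the 42 gene loci described here are members of the leucine-rich repeat RLP family of Arabidopsis thaliana, without RLP23 and TMM. They were taken by their locus identifiers, and 41 of them were among the 30901 loci of the count table (AT3G24954 was not analysed here). RNA was sequenced from nuclear and cytoplasmic fractions of rosettes of 14-day-old plants, separated by differential centrifugation. Col-0 is the wild type, and mos11 lacks normal function of MOS11, an RNA-binding protein of the machinery that exports mRNA from the nucleus; the labels name no allele. Plants of both genotypes grew on soil or on MS medium with 16 h of light at 21 °C and 8 h of darkness at 18 °C, and the labels give neither the medium nor the number of plants behind a library. The 4 groups were Col-0 nucleus and Col-0 cytoplasm with 4 libraries each, and mos11 nucleus and mos11 cytoplasm with 5 each. The question set by the design was whether transcripts are held in the nucleus of mos11.

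A receptor-like protein has a leucine-rich repeat domain outside the cell, a single membrane span and a short inner tail with no kinase domain. It signals through the adaptor kinase SOBIR1 and co-receptors of the SERK family such as BAK1, and several members recognise peptides or proteins of microbes and start immune responses. CLV2 is an exception in its role, since it works with the pseudokinase CRN in the control of stem cells in the shoot meristem.

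Depth differed between the fractions. A Col-0 library held 2547560 to 3719008 counts when nuclear and 556016 to 1160001 when cytoplasmic. The same ranges for mos11 were 1966574 to 18213517 and 907270 to 1280371. Levels below are library-size-normalised counts (CPM) scaled by TMM, and log2 fold changes come from edgeR's quasi-likelihood test with Benjamini-Hochberg adjustment over all 16207 loci that passed a filter on low counts. A call means an adjusted p under 0.05. The labels do not say that the libraries came from separate cultures, so p-values measure the spread between libraries, which may be technical. All cytoplasmic libraries but only 1 nuclear library, replicate 2 of mos11, were run on both flow cells, so flow cell and fraction cannot be told apart. The mesophyll markers RBCS1A, RCA, LHCB2.1 and CA1 were high in every library, whereas the petal and stamen gene AP3, the pollen gene VGD1 and the meristem genes WUS and CLV3 stood at or near 0. The meristem gene STM was detected, with means of 2.02 CPM in Col-0 nuclei and 5.81 CPM in the Col-0 cytoplasm. In mos11 its means were 1.14 and 4.86 CPM. The root genes COBL9 and EXPA7 were also detected, at 3.76 to 5.57 and 2.74 to 5.96 CPM in Col-0 nuclei. In mos11 nuclei they were at 2.71 to 5.42 and 2.42 to 5.18 CPM. Several members had nuclear levels of this size or lower. MOS11 itself was at 193 to 227 CPM in Col-0 nuclei and 158 to 183 CPM in mos11 nuclei, and at 86.4 to 126 CPM against 4.61 to 11.1 CPM in the cytoplasm. The genotypes did not overlap in either fraction (two-sided exact permutation p = 0.00794 in each, the smallest that 126 splits allow).

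Single-exon genes were frequent in the family. Of the 41 members, 23 (56.1%) have a single exon in the RefSeq annotation of TAIR10.1, against 20.4% of 27419 protein-coding loci, and the median transcript is 2779 bases long against 1479. Of the members, 19 lie in 8 tandem clusters, among them RLP20 and RLP21 on chromosome 2, RLP13, RLP14 and RLP15 on chromosome 1, and RLP37 and RLP38 and the group of RLP39, RLP41 and RLP42 on chromosome 3. Protein identity over the 820 pairs had a median of 37.3%, and 6 pairs exceeded 80%. The closest were RLP34 and RLP53, RLP41 and RLP42, and RLP39 and RLP41, whose coding sequences were 90.3%, 91.1% and 91.2% identical. The treatment of reads that match more than 1 locus is not stated by the submitters, so the split of counts between these near copies is uncertain.

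Promoter sequences are shown for the 6 members whose nuclear level differed between the genotypes under every alternative in which the member was tested, and for RLP51, the member with the lowest nucleus to cytoplasm ratio. Each is the 250 bases before the annotated start, from the RefSeq TAIR10.1 genome, written 5′ to 3′ on the strand of the gene. Capitals mark the W-box core TTGAC or its reverse complement GTCAA, the letters to which WRKY transcription factors, regulators of immune genes, are known to bind.
RLP20 (chr2:10826485-10826734, plus strand): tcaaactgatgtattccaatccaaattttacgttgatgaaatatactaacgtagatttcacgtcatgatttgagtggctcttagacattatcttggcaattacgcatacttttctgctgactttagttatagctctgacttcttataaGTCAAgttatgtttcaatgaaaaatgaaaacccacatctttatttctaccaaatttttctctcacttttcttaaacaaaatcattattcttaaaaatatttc
RLP36 (chr3:8174091-8174340, plus strand): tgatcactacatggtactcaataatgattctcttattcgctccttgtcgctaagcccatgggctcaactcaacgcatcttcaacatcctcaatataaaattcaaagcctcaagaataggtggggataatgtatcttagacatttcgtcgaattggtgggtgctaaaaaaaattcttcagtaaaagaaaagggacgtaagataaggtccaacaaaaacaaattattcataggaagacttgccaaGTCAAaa
RLP38 (chr3:8229620-8229869, minus strand): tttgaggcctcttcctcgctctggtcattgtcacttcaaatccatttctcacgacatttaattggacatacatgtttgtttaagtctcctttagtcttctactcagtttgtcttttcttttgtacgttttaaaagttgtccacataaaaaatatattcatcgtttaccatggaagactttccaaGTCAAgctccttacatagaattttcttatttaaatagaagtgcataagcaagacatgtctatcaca
RLP41 (chr3:9112937-9113186, minus strand): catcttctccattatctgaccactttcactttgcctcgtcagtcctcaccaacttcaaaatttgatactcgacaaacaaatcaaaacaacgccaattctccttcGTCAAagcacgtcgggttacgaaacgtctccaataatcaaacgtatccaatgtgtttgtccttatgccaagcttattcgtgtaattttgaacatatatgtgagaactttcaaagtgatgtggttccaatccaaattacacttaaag
RLP47 (chr4:8007598-8007847, minus strand): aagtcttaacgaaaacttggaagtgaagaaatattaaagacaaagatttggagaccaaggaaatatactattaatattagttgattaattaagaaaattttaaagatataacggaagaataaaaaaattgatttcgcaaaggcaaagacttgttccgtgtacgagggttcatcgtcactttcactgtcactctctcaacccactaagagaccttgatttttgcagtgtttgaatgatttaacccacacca
RLP50 (chr4:8043553-8043802, plus strand): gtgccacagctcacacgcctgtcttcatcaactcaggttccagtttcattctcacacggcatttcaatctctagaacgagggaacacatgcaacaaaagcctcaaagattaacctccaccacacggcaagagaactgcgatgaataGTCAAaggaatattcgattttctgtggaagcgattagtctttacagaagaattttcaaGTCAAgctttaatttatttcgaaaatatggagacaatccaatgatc
RLP51 (chr4:10309592-10309841, minus strand): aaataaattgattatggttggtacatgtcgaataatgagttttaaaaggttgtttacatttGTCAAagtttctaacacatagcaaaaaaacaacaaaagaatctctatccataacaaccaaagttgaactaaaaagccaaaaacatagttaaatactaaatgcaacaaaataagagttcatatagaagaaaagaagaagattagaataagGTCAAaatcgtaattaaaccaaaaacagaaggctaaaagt
The TTGAC core, on either strand, was found in 31 of 41 member promoters (75.6%), against 44.9% of 27419 promoters of the same length. It occurred in 7 of the 8 members that were higher in mos11 nuclei, in all 3 that were lower, in 11 of the 17 not called and in 10 of the 13 not tested. The longer forms TTGACC and TTGACT were found in 53.7% of member promoters and 28.4% of all. RLP47, with a clear genotype difference, had no TTGAC in this window. The windows of RLP36, RLP41 and RLP50 overlap other annotated loci. These are letter matches and not binding sites, and no binding was measured.

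Relative to other transcripts, those of receptor-like proteins made up more of the nuclear than of the cytoplasmic libraries in both genotypes. Summed over the 41 members, the level per library was 799 to 879 CPM in Col-0 nuclei and 60.2 to 128 CPM in the Col-0 cytoplasm, and 840 to 912 CPM against 65.8 to 114 CPM in mos11. The counts behind these sums, from libraries of unequal depth, were 15222 and 210 in Col-0 and 38075 and 352 in mos11. CPM is relative to its own fraction, so it does not give the share of a cell's transcripts that lies in the nucleus. A single member, RLP51, gave 130 of the 210 cytoplasmic counts in Col-0 and 110 of the 352 in mos11. Without it the cytoplasmic sum was 19.6 to 56.7 CPM in Col-0 and 43.5 to 86.1 CPM in mos11.

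Cytoplasmic counts were absent or few for most members. In Col-0, 19 of 41 members had no cytoplasmic count in any library, 15 had 1 to 3 and 7 had more. In mos11, with 5 libraries in this fraction, the numbers were 11, 10 and 20. Every nuclear library lay above every cytoplasmic library for 33 of 41 members (80.5%) in each genotype, against 23.2% of all counted loci in Col-0 and 21.2% in mos11. A count of 0 over a group allows up to 3 counts, which is 1.32 CPM over the Col-0 cytoplasm and 0.721 CPM over the mos11 cytoplasm, so for the weakest members no statement on export can be made at this depth. Intervals and floors here cover counting error only.

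**Figure D1:**
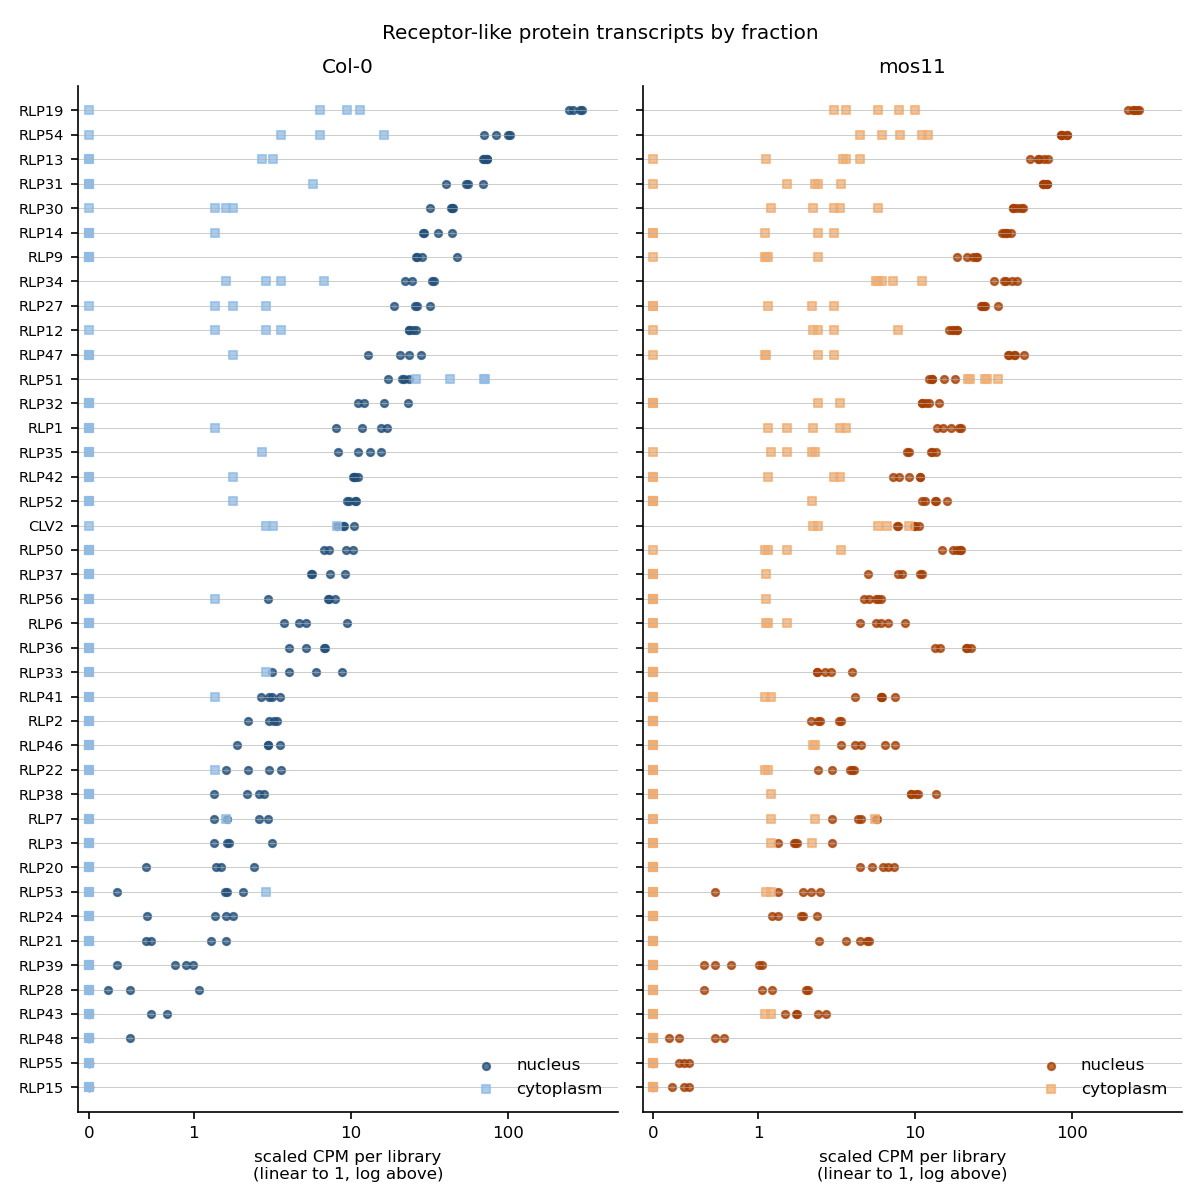
Scaled CPM of the 41 members, ordered by mean level in Col-0 nuclei, with 1 point per library for the nucleus (circles) and the cytoplasm (squares) of Col-0 (left) and mos11 (right); the axis is linear up to 1 CPM and logarithmic above. Cytoplasmic points lie at 0 or a few CPM for nearly every member, while the RLP51 points lie higher in the cytoplasm than in the nucleus on this TMM scaling, an order that raw library totals do not keep.

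Of the 28 members that passed the filter on low counts, 26 were called higher in the nucleus in Col-0, where 40.6% of all tested loci were, and 1, RLP51, was called lower, against 32.8%, a call that raw library totals did not give in either genotype. RLP7 was not called (log2 fold change 2.25, adjusted p = 0.093), and its value rose to 6.13 with a call without Col-0 cytoplasm replicate 1, which held its only Col-0 cytoplasmic count. In mos11, 27 were called higher and RLP51 lower, against 40.8% and 35.3% of all tested loci; the call of RLP7 there ended without mos11 cytoplasm replicate 1, 2, 3 or 5. Because the cytoplasmic counts were so low, most members passed the filter through their nuclear libraries, so a nuclear excess of the members tested was partly set by the filter. The median log2 fold change over the 28 was 5.12 in Col-0 and 3.72 in mos11, against 0.30 and 0.18 over all tested loci. With members at 0 in the cytoplasm set to the bound that 3 counts allow, the medians were 3.65 and 3.62. The scaling matters for these values: on raw library totals the median of all loci moved to 1.55 in Col-0 and 1.30 in mos11, and the medians of the 28 members to 6.04 and 4.82.

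The strongest members set the scale of the nuclear pool. RLP19 (AT2G15080, chromosome 2, 6533261 to 6537002) took 31.8% of the nuclear member counts in Col-0 and 27.1% in mos11. Its level in the Col-0 nuclear libraries was 287, 299, 260.0 and 244 CPM, and in the Col-0 cytoplasm 6.39, 11.5, 9.49 and 0 CPM. In mos11 nuclei it was 228, 244, 248, 257 and 267 CPM, and in mos11 cytoplasm 5.77, 3.63, 3.06, 9.99 and 7.84 CPM. The fractions were far apart and the genotypes overlapped. Pooled over libraries, RLP19 was 41.0-fold higher in the nucleus of Col-0 (95% interval 24.9 to 73.3) and 38.8-fold in mos11 (26.5 to 59.5), with no call between genotypes in the nucleus (log2 fold change -0.13 ± 0.13 SE, adjusted p = 0.51).

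RLP54 (AT5G40170), RLP13 (AT1G74170), RLP31 (AT3G05370) and RLP30 (AT3G05360) followed. Per kilobase of transcript, mean Col-0 nuclear levels were 74.9 CPM for RLP19, 32.4 for RLP54, 21.9 for RLP13, 18.8 for RLP31 and 15.2 for RLP30. RLP54 stood at 70.9 to 103 CPM in Col-0 nuclei and at 0 to 16.3 CPM in the cytoplasm, 11.4-fold apart when pooled (7.18 to 19.2), and 10.1-fold in mos11 (7.28 to 14.5). Col-0 cytoplasm replicate 3 held 12 of its 18 Col-0 cytoplasmic counts, and without that library the pooled Col-0 ratio was 23.0. RLP13 was 40.6-fold higher in Col-0 nuclei (15.9 to 149) and 23.0-fold in mos11 (12.9 to 46.1), and its Col-0 interval overlaps that of RLP54.

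RLP30, RLP32, RLP42, RLP1 and RLP52, members with a known ligand or immune role, were also called higher in the nucleus of both genotypes, which RLP51, described further on, was not. RLP30, needed for recognition of a protein of the fungus Sclerotinia, was at 44.6, 44.0, 32.0 and 43.4 CPM in Col-0 nuclei with 3 cytoplasmic counts in all, 31.2-fold higher (10.7 to 151); it shares its strand with the overlapping locus AT3G05350. RLP32, the receptor of a bacterial translation initiation factor, was at 11.2 to 23.3 CPM in Col-0 nuclei with no cytoplasmic count, at least 11.9-fold higher, and 9.46-fold higher in mos11 (4.05 to 29.1). RLP42, which recognises fungal endopolygalacturonases, was at 10.4 to 11.2 CPM in Col-0 nuclei with 1 cytoplasmic count, and 6.86-fold higher in the nucleus in mos11 (3.15 to 18.7).

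RLP1, also called ReMAX and needed for the response to a Xanthomonas elicitor, was at 8.06 to 17.0 CPM in Col-0 nuclei with 1 cytoplasmic count, and 7.41-fold higher in the nucleus in mos11 (4.03 to 15.4). RLP52, linked to defence against powdery mildew, was at 9.50 to 10.8 CPM in Col-0 nuclei with 1 cytoplasmic count, and 25-fold higher in mos11 (6.93 to 207). For members with 1 cytoplasmic count the Col-0 ratio rests on 1 library, and its interval is wide: 4.33 to 952 for RLP42, 5.33 to 1170 for RLP1 and 4.08 to 897 for RLP52. Leaving out that library (Col-0 cytoplasm replicate 4 for RLP42 and RLP52, replicate 3 for RLP1) leaves no count at all, so the fitted value is then no bound. Without mos11 cytoplasm replicate 4, which also held both mos11 cytoplasmic counts of RLP52, the mos11 log2 fold change moved from 3.27 to 4.30 for RLP32 and from 2.67 to 3.39 for RLP42, and the pooled ratios from 9.46 to 18.5 and from 6.86 to 10.7. RLP31 was at 40.5 to 69.3 CPM in Col-0 nuclei, with 2 cytoplasmic counts that both came from Col-0 cytoplasm replicate 2. RLP55 had no count in any Col-0 library and 3 nuclear counts in mos11, so nothing can be said of it.

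Bounds were firmest where nuclear counts were high. RLP9 (AT1G58190), at 28.5, 26.6, 47.6 and 25.9 CPM in Col-0 nuclei, had no Col-0 cytoplasmic count and was at least 23.4-fold higher in the nucleus, and 18.0-fold higher in mos11 (7.71 to 55.4). RLP36 had no cytoplasmic count in any of the 9 libraries, which puts it at least 4.31-fold higher in Col-0 nuclei and at least 27.5-fold higher in mos11 nuclei. The same bounds were 6.34-fold for RLP50, 5.24-fold for RLP37 and 4.48-fold for RLP6 in Col-0. RLP20 also had no cytoplasmic count, but with few nuclear counts its bound was 1.10-fold in Col-0 and 9.24-fold in mos11, and its Col-0 call ended without Col-0 nucleus replicate 1 or any single Col-0 cytoplasmic library, and without both fractions of Col-0 replicate 3.

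RLP51 (AT4G18760, chromosome 4, 10307810 to 10309591) had the lowest nucleus to cytoplasm ratio of the tested members in both genotypes. It is also called SNC2, and a gain-of-function form of it is known to switch on immunity without a pathogen. In Col-0 nuclei it was at 22.0, 17.3, 23.5 and 21.3 CPM, and in the Col-0 cytoplasm at 70.3, 25.9, 71.8 and 43.0 CPM. In mos11 nuclei it was at 17.9, 12.8, 12.3, 12.8 and 15.2 CPM, and in the mos11 cytoplasm at 28.8, 21.8, 33.7, 27.8 and 22.4 CPM. With TMM scaling every cytoplasmic library lay above every nuclear library of its genotype. Nucleus against cytoplasm gave a log2 fold change of -1.42 ± 0.21 SE in Col-0 (edgeR adjusted p = 1.5e-06) and -0.92 ± 0.21 SE in mos11 (adjusted p = 0.00033).

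That direction rests on the scaling between fractions. TMM factors were 1.45 to 1.54 in nuclei and 0.596 to 0.729 in the cytoplasm, and on raw library totals the values for RLP51 were -0.16 in Col-0 (adjusted p = 0.48) and 0.19 in mos11 (adjusted p = 0.39), with no call in either. Relative to the median of all tested loci the place of RLP51 hardly moved: it lay 1.71 log2 units below that median in Col-0 under both scalings, written as -1.71, and at -1.11 and -1.10 in mos11. By the same ordering 20.6% of all tested loci had a lower nuclear excess than RLP51 in Col-0 and 27.1% in mos11. RLP51 has the shortest transcript of the tested members (1782 bases, 1 exon), and no test of length was made.

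CLV2 (AT1G65380, chromosome 1, 24286742 to 24289329) was the next least nuclear member. Its level was 10.5, 9.13, 8.21 and 8.95 CPM in Col-0 nuclei and 3.20, 2.88, 8.13 and 0 CPM in the Col-0 cytoplasm. In mos11 it was 9.90, 9.97, 10.6, 7.72 and 7.78 CPM in nuclei and 5.77, 2.42, 9.19, 6.66 and 2.24 CPM in the cytoplasm. The fractions did not overlap in Col-0, where the highest cytoplasmic library came close, and overlapped in mos11. The log2 fold change was 1.21 ± 0.47 SE in Col-0 (edgeR adjusted p = 0.024) and 0.88 ± 0.34 SE in mos11 (adjusted p = 0.020). The Col-0 call ended without Col-0 cytoplasm replicate 1 or 4, and the value rose to 2.23 without Col-0 cytoplasm replicate 3; the mos11 call ended without mos11 cytoplasm replicate 2 or 5.

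**Figure D2:**
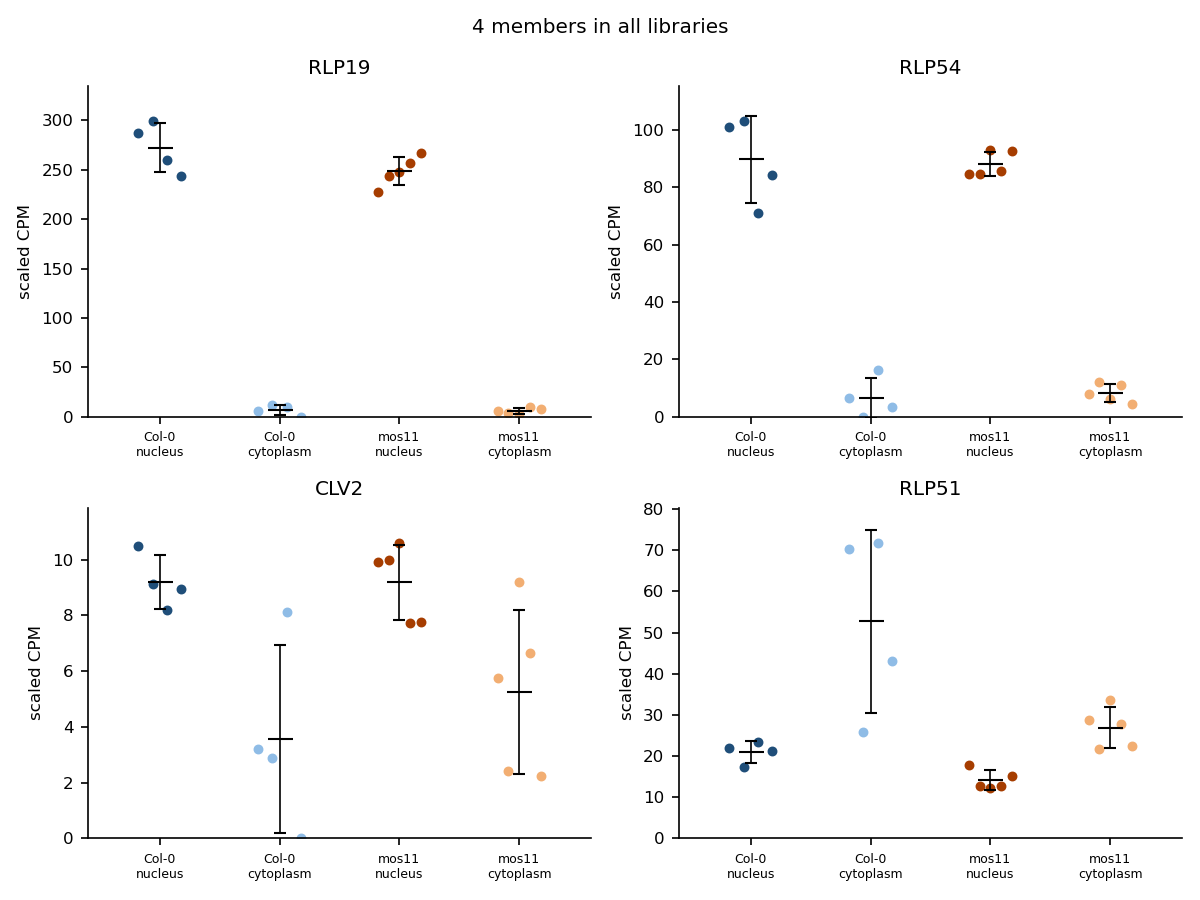
Scaled CPM of RLP19, RLP54, CLV2 and RLP51 in each library (points) with the group mean and SD (bars), for the nucleus and cytoplasm of Col-0 (n = 4) and mos11 (n = 5). RLP19 and RLP54 are near 0 in the cytoplasm, CLV2 falls between, and RLP51 is highest in the Col-0 cytoplasm on this TMM scaling.

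Summed ratios were larger for members with several exons. Without RLP51, the 22 single-exon members summed to 343 CPM in Col-0 nuclei and 22.8 CPM in the cytoplasm, 15.1-fold apart. The 17 members with more exons, left after RLP19 was also set aside, summed to 213 and 5.70 CPM, 37.4-fold apart. In mos11 the ratios were 10.4 and 18.3. A few members carried much of the single-exon cytoplasmic sums. RLP54, CLV2 and RLP34 gave 7.89, 3.95 and 3.95 of the 22.8 CPM in Col-0. In mos11 they gave 8.41, 5.05 and 7.21 of 38.9 CPM. The ratios therefore do not describe single-exon members in general. Over the Col-0 cytoplasm 3 counts make 1.32 CPM, so the sum of 5.70 CPM for members with more exons rests on few counts. Whether intronic reads were counted is not given. The values above are sums within the same libraries and carry no test.

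Between genotypes, 8 members rose and 3 fell in the nucleus of mos11, while 17 of the 28 tested were not called. Of all tested loci, 9.14% were called higher and 10.9% lower in this comparison. The 8 were RLP38, RLP20, RLP36, RLP50, RLP7, RLP47, RLP41 and RLP34, and the 3 were RLP51, RLP9 and RLP12. RLP38, RLP20, RLP7 and RLP41 stayed at or below 3.54 CPM in Col-0 nuclei and passed the filter through their mos11 nuclear libraries. The number called higher and the median of the 28 were therefore partly set by the filter. With no filter, 10 of 41 members were called higher and 4 lower, against 5.65% and 6.71% of all loci in that fit. The median log2 fold change of the 28 was 0.16 against -0.07 for all tested loci. Among all 41 members, every mos11 nuclear library lay above every Col-0 nuclear library for 9 (22.0%), where 5.56% of all loci did, and below for 2 (4.88%), where 7.55% did. In bulk RNA, fewer cells of a type and less RNA per cell cannot be told apart.

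The largest rise was in RLP38 (AT3G23120, chromosome 3, 8227222 to 8229619). Its nuclear level was 1.34, 2.61, 2.19 and 2.79 CPM in Col-0 and 9.42, 13.5, 9.37, 10.1 and 10.5 CPM in mos11. The groups were far apart, with a log2 fold change of 2.25 ± 0.25 SE (4.74-fold, edgeR adjusted p = 8.6e-07). Its tandem neighbour RLP37, with 73.8% of aligned residues shared, was at 5.59 to 9.15 CPM in Col-0 nuclei and 5.05 to 11.1 CPM in mos11 nuclei, overlapping, and was not called (0.37 ± 0.23 SE, adjusted p = 0.27). The difference between these neighbours was not tested.

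RLP20 (AT2G25440, chromosome 2, 10826735 to 10829402) was at 2.42, 1.49, 0.547 and 1.39 CPM in Col-0 nuclei and at 5.31, 7.35, 4.44, 6.24 and 6.76 CPM in mos11 nuclei. All mos11 values exceeded all Col-0 values, 4.20-fold in the fit (2.07 ± 0.32 SE, adjusted p = 9.8e-05). RLP36 (AT3G23010, chromosome 3, 8174341 to 8176911) was at 4.03, 5.21, 6.84 and 6.76 CPM in Col-0 nuclei and at 13.3, 21.5, 14.5, 22.6 and 21.0 CPM in mos11 nuclei. Again the groups did not overlap, with a 3.26-fold difference (1.70 ± 0.22 SE, adjusted p = 1.5e-05).

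RLP50 (AT4G13920, chromosome 4, 8043803 to 8046559) was at 6.72, 7.26, 9.31 and 10.3 CPM in Col-0 nuclei and at 17.4, 19.4, 14.8, 18.4 and 19.6 CPM in mos11 nuclei, with no overlap (2.14-fold, 1.09 ± 0.18 SE, adjusted p = 9.9e-05). The overlapping long non-coding locus AT4G13918 on the other strand moved the other way (17.1 and 9.64 CPM, log2 fold change -0.78, adjusted p = 0.0080), and the counting of strand is not stated. RLP47 (AT4G13810, chromosome 4, 8004549 to 8007597) was at 23.4, 27.9, 12.9 and 20.5 CPM in Col-0 nuclei and at 38.9, 49.3, 42.9, 43.4 and 39.6 CPM in mos11 nuclei. These groups did not overlap either (2.02-fold, 1.01 ± 0.17 SE, adjusted p = 7e-05). A locus that overlaps it on the same strand, AT4G13800, had a value of 0.63 that was not called (adjusted p = 0.14).

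RLP41 (AT3G25010, chromosome 3, 9110057 to 9112936), whose mutants are known for a stronger response to abscisic acid, was at 2.69, 3.54, 3.01 and 3.18 CPM in Col-0 nuclei and at 6.04, 7.50, 6.16, 4.16 and 6.09 CPM in mos11 nuclei. The lowest mos11 library was still above the highest of Col-0 (2.0-fold, 1.0 ± 0.24 SE, adjusted p = 0.0037). RLP42, which lies next to it and is the near copy named above, was not called (-0.19 ± 0.19 SE, adjusted p = 0.54).

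RLP7 and RLP34 were called with overlapping groups. RLP7 (AT1G47890) was at 1.34, 2.61, 1.64 and 2.98 CPM in Col-0 nuclei and at 4.35, 4.51, 2.96, 5.64 and 5.75 CPM in mos11 nuclei (1.02 ± 0.32 SE, edgeR adjusted p = 0.025). RLP34 (AT3G11010) was at 24.5, 32.8, 22.2 and 33.8 CPM and at 37.7, 44.3, 37.0, 41.6 and 31.8 CPM (0.44 ± 0.14 SE, adjusted p = 0.027). The RLP7 call ended without both fractions of Col-0 replicate 3, and that of RLP34 ended without Col-0 nucleus replicate 1 or 3, mos11 nucleus replicate 2 or 4, or both fractions of Col-0 replicate 3.

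The 3 members that fell changed by 1.40- to 1.49-fold. RLP12 (AT1G71400), which can stand in for CLV2 when expressed in its place, was at 23.4, 26.1, 23.5 and 25.1 CPM in Col-0 nuclei and at 16.4, 17.1, 17.8, 18.4 and 18.6 CPM in mos11 nuclei, with no overlap (-0.48 ± 0.16 SE, edgeR adjusted p = 0.033). RLP9 was at 18.4, 21.5, 24.4, 23.2 and 24.7 CPM in mos11 nuclei, all below the Col-0 values given above (-0.51 ± 0.17 SE, adjusted p = 0.031). RLP51 overlapped between the genotypes, at its nuclear levels given above (-0.58 ± 0.17 SE, adjusted p = 0.019). None of the 3 calls held throughout. RLP12 lost its call on raw library totals and without Col-0 nucleus replicate 2 or 4 or any single mos11 nuclear library. RLP9 lost it under 10 alternatives, among them raw library totals, DESeq2, and leaving out Col-0 nucleus replicate 3, which held its highest value, or mos11 nucleus replicate 1, 2 or 4. RLP51 lost it without mos11 nucleus replicate 2 or 3.

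**Figure D3:**
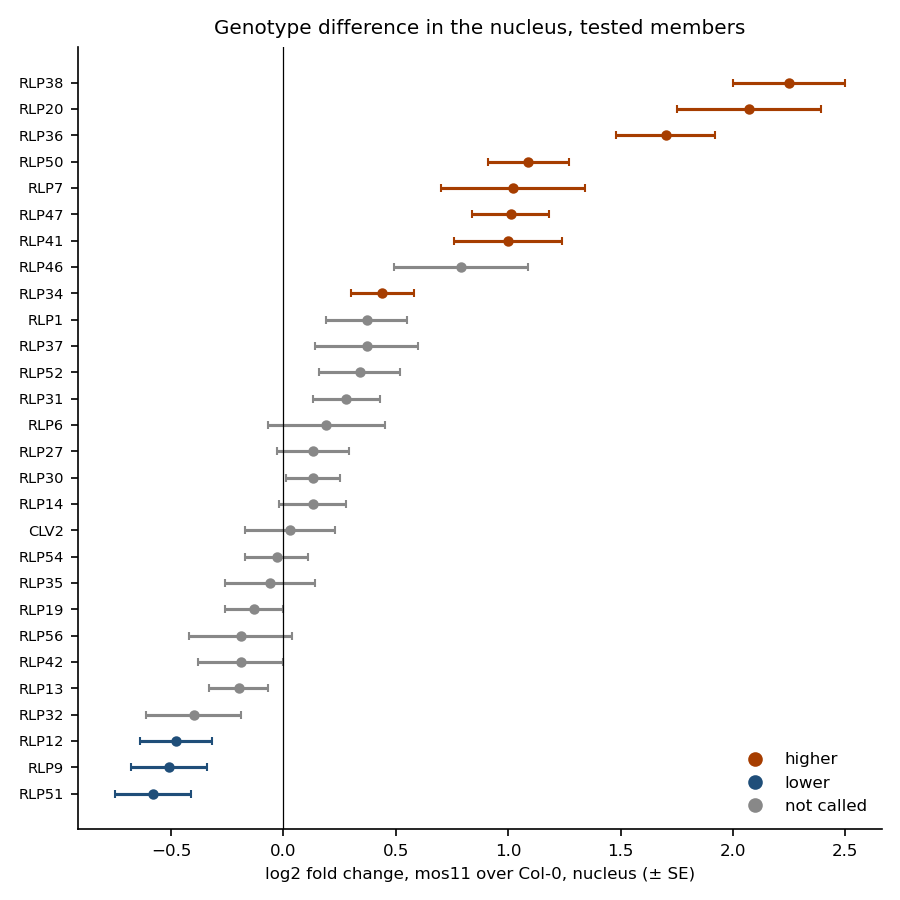
Log2 fold change of mos11 over Col-0 in the nucleus (x axis, bars ± SE) for the 28 tested members, coloured by the call at an adjusted p of 0.05. RLP38, RLP20 and RLP36 lie furthest to the right at 2.25, 2.07 and 1.70, and most members lie near 0.

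**Figure D4:**
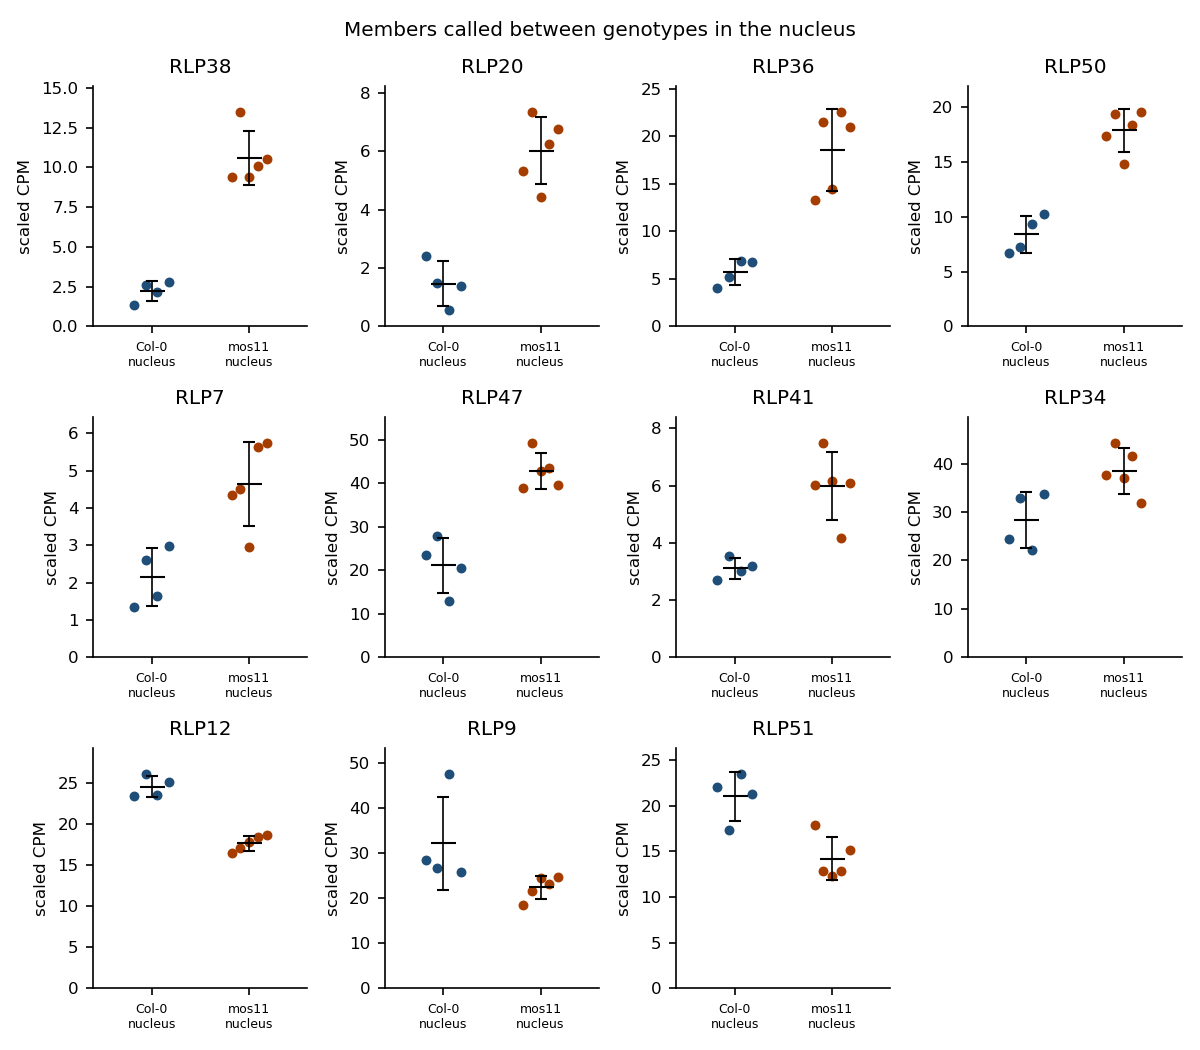
Nuclear levels (scaled CPM, y axis from 0) of the 11 members called between genotypes, with 1 point per library and the mean and SD as bars, for Col-0 (n = 4) and mos11 (n = 5). The groups are separate for RLP38, RLP20, RLP36, RLP50, RLP47, RLP41, RLP12 and RLP9 and overlap for RLP7, RLP34 and RLP51.

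The mos11 nuclear libraries weighed on the count of calls. Of the 11 calls, 6 (RLP20, RLP36, RLP38, RLP41, RLP47 and RLP50) held under every alternative in which the member was tested. Without mos11 nucleus replicate 1, 2, 4 or 5, the numbers called higher were 5, 4, 5 and 5, and without replicate 1, 2, 3 or 4 the numbers called lower were 1, 0, 1 and 1. Fewer members, 24 or 25, passed the filter in those fits. Without replicate 1, 2, 4 or 5 fewer than 6 were called higher, so not all of the 6 were tested there. The shares of all tested loci called also fell. In the same order, the share called higher went from 9.14% to 7.79%, 6.67%, 8.03% and 7.97%. The share called lower went from 10.9% to 8.94%, 8.03%, 9.03% and 9.31%. Without both fractions of Col-0 replicate 3, whose 2 libraries deviated together, 8 of 29 tested members were called higher and 2 lower. RLP7 and RLP34 were not among these 8. Of all tested loci, 8.58% were called higher and 10.3% lower in that fit.

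Of the 13 members that did not pass the filter, with 3 to 221 counts over all libraries, RLP21 and RLP43 were higher in mos11 nuclei when no filter was applied. RLP21 (AT2G25470), the tandem neighbour of RLP20, was at 1.61, 1.30, 0.547 and 0.597 CPM in Col-0 nuclei and at 3.62, 2.44, 4.93, 4.45 and 5.07 CPM in mos11 nuclei (log2 fold change 1.83, edgeR adjusted p = 0.0015). RLP43 (AT3G28890) was at 0, 0.745, 0 and 0.597 CPM and at 2.42, 1.75, 1.48, 1.78 and 2.71 CPM (2.21, adjusted p = 0.0035). In both, the mos11 libraries lay above all Col-0 libraries. RLP33 was lower (-0.92, adjusted p = 0.035) with overlapping groups, and the other 10, RLP2, RLP3, RLP15, RLP22, RLP24, RLP28, RLP39, RLP48, RLP53 and RLP55, were not called.

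In the cytoplasm 1 member was called between genotypes. RLP51 fell by 1.07 ± 0.24 SE on the log2 scale (2.1-fold lower in mos11, edgeR adjusted p = 0.0030), on 9 to 53 counts per library in Col-0 and 18 to 25 in mos11. The groups overlapped in CPM, with Col-0 replicate 2 at 25.9 CPM inside the mos11 range of 21.8 to 33.7 CPM. Of all tested loci, 6.02% were called higher and 6.40% lower. No member was called higher by edgeR or by DESeq2, and 1 had an unadjusted p under 0.05 in that direction. With 0 to 3 counts over the Col-0 cytoplasm for 34 of 41 members, a difference of ordinary size was not detectable at this depth.

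The ratio of nucleus to cytoplasm differed between genotypes for none of the 28 members, where 0.66% of all tested loci were called higher and 0.919% lower in mos11. By unadjusted p under 0.05, 0 were higher and 1 lower, and DESeq2 also called none. For RLP51, the member with the most cytoplasmic counts, the nucleus to cytoplasm values of -1.42 and -0.92 differed by less than the test could call. The data at this depth do not show that the ratios were alike.

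A list of 30 genes held co-receptors and signalling partners of the family and genes of linked immune and meristem pathways. Of these, 28 were tested. In Col-0, 18 were called higher in the nucleus and 5 lower, against 40.6% and 32.8% of all tested loci, with a median log2 fold change of 1.21 against 0.30. In mos11 20 were higher and 1 lower, against 40.8% and 35.3%, with a median of 1.19 against 0.18. The 5 lower in Col-0 were BIK1, PBL1, EDS1, ADR1-L2 and WRKY70, and EDS1 was the one in mos11. On raw library totals none was called lower in either genotype (25 higher in Col-0 and 27 in mos11), and the values of BIK1, PBL1, ADR1-L2 and WRKY70 in Col-0 changed sign. On that scaling 68.5% of all tested loci were called higher in Col-0 and 68.2% in mos11, and 16.7% and 18.3% lower. The BIK1 call ended under 18 of 26 alternatives, that of PBL1 under 4 and that of ADR1-L2 under 3, among them leaving out Col-0 cytoplasm replicate 3 for each. SOBIR1, the adaptor kinase of the family, was at 28.3 to 37.9 CPM in Col-0 nuclei and 7.17 to 11.5 CPM in the cytoplasm (1.81 ± 0.25 SE, edgeR adjusted p = 2.6e-07). BAK1 was at 50.1 to 64.8 and 14.3 to 39.3 CPM (1.21 ± 0.21 SE, adjusted p = 1.4e-05), and EDS1, a hub of immune signalling, was lower in the nucleus (-1.58 ± 0.17 SE, adjusted p = 3.3e-09), a call that ended on raw library totals (-0.32, adjusted p = 0.072).

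Between genotypes in the nucleus, 8 of these listed genes rose and 2 fell, where 9.14% of all tested loci were called higher and 10.9% lower. SOBIR1 rose to 49.6 to 59.8 CPM in mos11 nuclei (0.67 ± 0.12 SE, edgeR adjusted p = 0.00020) and in the cytoplasm from 7.17 to 11.5 CPM to 14.5 to 25.4 CPM (1.06 ± 0.29 SE, adjusted p = 0.015). The cytoplasmic call of SOBIR1 ended without Col-0 cytoplasm replicate 3 or 4, without both fractions of Col-0 replicate 3 and with the replicate block. WRKY70, a transcription factor of salicylic acid defence, rose in the nucleus from 13.4 to 44.7 CPM to 88.9 to 111 CPM (2.05 ± 0.24 SE, adjusted p = 9e-07) and in the cytoplasm (1.24 ± 0.31 SE, adjusted p = 0.0069). SARD1 (1.26 ± 0.21 SE), which controls salicylic acid synthesis, PAD4 (0.77 ± 0.22 SE), the oxidase gene RBOHD (0.72 ± 0.14 SE), ADR1 (0.69 ± 0.17 SE), PBL31 (0.60 ± 0.18 SE) and ADR1-L2 (0.48 ± 0.13 SE) also rose in the nucleus. The receptor kinase gene CLV1 (-1.13 ± 0.20 SE) and SERK2 (-0.41 ± 0.14 SE, edgeR adjusted p = 0.040) fell. The SERK2 call ended under 9 of 26 alternatives, among them raw library totals, the replicate block, and leaving out Col-0 nucleus replicate 4, mos11 cytoplasm replicate 4 or any single mos11 nuclear library. The call of PBL31 ended without Col-0 nucleus replicate 3 or 4, that of ADR1-L2 without Col-0 nucleus replicate 4, and those of PBL31, ADR1-L2 and ADR1 with the replicate block.

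BAK1 was not called between genotypes in either fraction. In the cytoplasm RBOHD (0.74 ± 0.19 SE, edgeR adjusted p = 0.0091) and SERK5 also rose, although SERK5 had no Col-0 cytoplasmic count and 11 in mos11, and its call ended under 20 of 25 alternatives. No listed gene was called for the difference in ratio. The other 13 annotated RLP loci of the table, RLP23 and TMM included, gave 6 tested loci. Of these, 5 were called higher in Col-0 nuclei (median 2.31) and 6 in mos11 nuclei (median 2.11). The shares of all tested loci were 40.6% and 40.8% (medians 0.30 and 0.18). Cytoplasmic counts were low here too, so the filter may have set part of this excess. In that set RLP23 rose in mos11 nuclei (1.30, edgeR adjusted p = 0.00095) and RLP4 and RLP45 fell (-0.40 and -0.52, adjusted p = 0.018 and 0.042). Of all tested loci, 9.14% were called higher and 10.9% lower in mos11 nuclei. The guard cell lineage markers MYB60 (29.6 to 36.6 and 51.4 to 61.4 CPM) and FAMA (39.3 to 74.5 and 78.1 to 93.7 CPM) were also higher in mos11 nuclei than in Col-0 nuclei. The guard cell marker KAT1 went the other way in its mean (45.9 and 30.1 CPM), with overlapping ranges (31.8 to 58.9 and 27.1 to 32.4 CPM). The epidermal marker PDF1 was lower in mos11 nuclei (102 to 114 and 67.6 to 87.3 CPM). The epidermal marker ATML1 overlapped between the genotypes (105 to 126 and 99.8 to 114 CPM). The part of these markers in the differences between genotypes was not tested.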

How the data were processed

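The authors deposited 1 table of raw counts per locus, whole numbers for 30901 loci in 18 columns, and every column was matched by name to a genotype, fraction and replicate; the labels list 28 samples because 10 libraries were run on both flow cells. Per the submitters' processing notes the tools were STAR 2.7.8a, Picard, UMI-tools and featureCounts with the TAIR10 build; their settings, the strand used, the treatment of reads matching several loci, whether intronic reads were counted and whether a column sums both flow cells are not given in the sources used here. Per the labels' protocols, ERCC spike-in RNA was added and ribosomal RNA was depleted, so transcripts without a poly(A) tail can be present in the total RNA.

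All 18 libraries in 4 groups were fitted together in R 4.3.3 with edgeR 4.0.16 (TMM, filterByExpr, quasi-likelihood test, adjusted p threshold 0.05), and the script was tested on simulated data. Standard errors are approximate and were derived from the F statistic (the fold change divided by its root). Pooled ratios carry exact 95% intervals of the counts. Depth was 556016 to 18213517 counts per library, and edgeR's biological coefficient of variation came to 17.9% (nuclei) and 23.7% (cytoplasm) for Col-0, with 6.13% and 10.8% for mos11. The common spread of the fit is therefore an average over unequal groups.

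The members and lists were chosen with earlier results of these data known. Named members are all called between genotypes, the 5 most and 3 least nuclear in each genotype at 3 CPM or more, those of known role and those cited for a cluster or near copy; RLP21, RLP33 and RLP43 were named after their values were seen. AT2G15080 is RLP19 in RefSeq (RLP18 in the list). Between the fractions of Col-0, same-numbered libraries deviated together most clearly for replicate 3 (correlation 0.333). The other Col-0 correlations were 0.105 to 0.165, and nucleus replicate 2 matched cytoplasm replicate 1 best, so pairing by number is not settled there. Correlations were 0.0146 to 0.0526 between the fractions of mos11 and -0.0902 to 0.102 between genotypes. The main fit used no replicate block. Alternatives were other scaling (RLE, and raw library totals), other filters, DESeq2 1.42.0, the groups compared alone, a replicate block and leaving out libraries; raw library totals and leaving out both fractions of Col-0 replicate 3 were chosen after seeing the data.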

Additional observations from a re-analysis of the deposited data

Results flagged for a closer look

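Of 49 groups of libraries tested for a library far from the others of its group (members with at least 5 counts in every library), 3 stood out, and chance alone gives about 1 in 20. RLP9 was highest in 1 Col-0 nuclear library, replicate 3, at 47.6 CPM, against 25.9 to 28.5 CPM in the other 3. RLP30 was lowest in the same library at 32.0 CPM, against 43.4 to 44.6 CPM. RLP38 was highest in mos11 nucleus replicate 2, the most deeply sequenced library, at 13.5 CPM, against 9.37 to 10.5 CPM in the others.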

How the results depend on the processing

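Of the single-gene values recomputed under the alternatives, 2987 kept their direction and their side of the threshold, 80 lost a call, 4 gained one and 1 reversed. The reversed value was RLP51 between the fractions of mos11, 0.19 on raw library totals. On raw library totals no member was called lower in the nucleus of either genotype (0 and 0), where 16.7% and 18.3% of all tested loci were. The member medians were then 6.04 in Col-0 and 4.82 in mos11. In mos11 nuclei 1 member was called lower than in Col-0 nuclei, as were 8.4% of all tested loci. This scaling leaves out the factors that separate the fractions. The Col-0 median was 4.33 with DESeq2 and 5.76 without both fractions of Col-0 replicate 3. The mos11 median was 4.03 with only the groups compared. For genotype in the cytoplasm, most fitted values rest on 0 to 3 Col-0 counts. With only the groups compared, 1 member was tested there, so the -1.03 of that fit is its value alone and not a family median. The median was 0.99 in the main fit and 1.41 without both fractions of Col-0 replicate 3. The median of the genotype difference in ratio was -0.78, and -1.23 in the latter. For these medians the cause was not tested.

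Leaving out 1 library at a time gave 23 to 28 members called higher and 1 to 1 lower in the nucleus of Col-0, 23 to 30 and 1 to 1 in mos11, 4 to 10 higher and 0 to 4 lower in mos11 nuclei against Col-0 nuclei, 0 to 0 higher and 1 to 1 lower in the cytoplasm, and 0 to 0 for the ratio in either direction. The medians ranged from 4.91 to 5.74, 3.73 to 4.19, 0.05 to 0.26, 0.80 to 1.41 and -1.19 to -0.50. The number of members tested ran from 24 to 31 in these fits, so the counts also depend on the filter. Of all tested loci, 37.5% to 41.4% were called higher and 30.3% to 33.5% lower in the nucleus of Col-0. In mos11 the shares were 38.9% to 41.6% and 32.1% to 36.1%. For genotype in the nucleus, 6.67% to 10.4% were called higher and 7.84% to 11.7% lower. In the cytoplasm these shares were 4.17% to 6.79% and 4.53% to 7.41%. With the replicate block, 26 members were higher and 1 lower in the nucleus of Col-0 and 27 and 1 in mos11, and between genotypes 8 were higher and 2 lower in the nucleus: RLP9 lost its call, as did ADR1, ADR1-L2, PBL31 and SERK2 in the nucleus and SOBIR1 and SERK5 in the cytoplasm. The numbers do not pair the genotypes, so these losses are not read as weaker effects. With the block, 40.7% of all tested loci were called higher and 32.7% lower in the nucleus of Col-0, and 40.8% and 35.1% in mos11. Between genotypes, 8.42% were called higher and 6.84% lower in mos11 nuclei. Cytoplasmic depth limits every statement on that fraction.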
